A study of Mus musculus with 12 samples.

Results

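Mllt10, Gphn, Vwa8 and Tasp1 were host genes of many different circular RNAs (circRNAs) in mouse liver. In a circRNA the downstream end of an exon has been joined to the upstream end of that exon or an earlier one, and reads across this back-splice junction reveal it. The members were all junctions of the deposited table that lay inside one of these genes in the GENCODE M21 annotation (assembly GRCm38) with at least 1 end on an exon boundary of that gene. They were 140 of 16445 junctions, with 38 in Mllt10, 36 in Gphn, 36 in Vwa8 and 30 in Tasp1. The hosts were chosen by their number of junctions in these libraries, so that number is given as a description and was not tested. Among 4724 host genes the number ranked 2 for Mllt10, 3 for Gphn and Vwa8 and 7 for Tasp1, and the median host had 2 junctions. Dpyd, with 46 junctions, ranked above all of them, and Rere and Ehmt1 with 35, Asph with 30 and Rabep1 with 29 lay beside them in the order.

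The livers came from 12 mice of a strain the labels spell C57BL/8. Carbon tetrachloride (CCl4), a liver toxin that causes fibrosis, was injected into all of them 2 times a week (10%, with 10 µl for every 10 g of mouse), and livers were collected in week 8. The Control group of 6 mice received nothing else. The PZH group of 6 mice received Pien Tze Huang (PZH) as well, a traditional Chinese remedy, as a 25 mg/ml preparation daily in weeks 2 to 8. Values compare CCl4 with PZH against CCl4 without it, and livers without CCl4 were not analysed here. Levels are in SRPBM, in this field spliced reads at a junction scaled to the mapped reads of the library. They measure circles per library, so fewer cells that make a circle and less of it per cell cannot be told apart.

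Each host encodes a protein with a known function. Mllt10 encodes AF10, a chromatin reader that works with the histone methyltransferase DOT1L and is a fusion partner of MLL in leukaemia. Tasp1 encodes taspase 1, a threonine protease that cleaves MLL and the transcription factor TFIIA. Gphn encodes gephyrin, which completes the synthesis of the molybdenum cofactor in liver and anchors inhibitory receptors at synapses. Vwa8 encodes a mitochondrial AAA ATPase with a von Willebrand factor A domain. Back-splicing generally competes with linear splicing of the same transcript, and long introns around an exon are a known feature of exons that form circles.

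All 4 are long genes. Mllt10 lies on the plus strand at chr2:18055237-18212388, and its reference transcript here, ENSMUST00000114671.7, has 24 exons. Gphn lies on the plus strand at chr12:78226379-78684772 with 23 exons in ENSMUST00000110388.9. Vwa8 lies on the plus strand at chr14:78849052-79202310 with 45 exons in ENSMUST00000040990.6. Tasp1 lies on the minus strand at chr2:139833480-140066805 with 14 exons in ENSMUST00000046656.8. Exon numbers below are those of these transcripts, and a circle is named by its first and last exon.

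The sequences below cross the back-splice of 10 junctions, chosen because they were the strongest of each host, share an end with it, or had the smallest p-values between the groups. Each was joined from the GENCODE M21 transcript, 5′ to 3′. The lower-case bases are the last 15 of the exon at which the circle ends (the donor side), and the capitals are the first 15 of the exon at which it starts (the acceptor side).
Tasp1 exons 2 to 4, chr2:140042094-140057499, minus strand: ctggtggaacttgagGTTGACTCCCTTTGC
Tasp1 exons 2 to 8, chr2:139977607-140057499, minus strand: caatcaagcgcaaagGTTGACTCCCTTTGC
Tasp1 exons 2 to 5, chr2:140008699-140057499, minus strand: ttggagcactgagtgGTTGACTCCCTTTGC
Mllt10 exons 4 to 10, chr2:18092784-18146872, plus strand: gttactacagaaaaaTTGTTGCTTACTGTG
Mllt10 exons 4 to 9, chr2:18092784-18126229, plus strand: gagaaagagaaaaaaTTGTTGCTTACTGTG
Gphn exons 2 to 4, chr12:78343352-78412433, plus strand: gatgtcactccagagTGAGTGATAGCTGCT
Gphn exons 2 to 3, chr12:78343352-78376417, plus strand: atagaagaaatcaagTGAGTGATAGCTGCT
Gphn exons 2 to 9, chr12:78343352-78504751, plus strand: tgtccaacaccaaaaTGAGTGATAGCTGCT
Vwa8 exons 13 to 14, chr14:78982236-78984302, plus strand: gcagctacagaacagGATATGACTGCGCGG
Vwa8 exons 17 to 20, chr14:79009164-79026077, plus strand: ttggttggtaaccagGCACAGTCCTTGGCA
The 3 Tasp1 sequences share their capitals, as do the 3 Gphn and the 2 Mllt10 sequences, because those circles start at the same exon and differ in the exon at which they end. The Tasp1 capitals are 5′ UTR sequence of exon 2.

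The 4 hosts had many junctions in different ways. Over the 12 libraries the mean SRPBM of a host's junctions summed to 138.3 for Tasp1, 92.3 for Gphn, 86.8 for Mllt10 and 56.9 for Vwa8, which ranked 27, 51, 58 and 115 among the hosts. The strongest junction carried 59.1% of that sum in Tasp1, 39.2% in Gphn, 36.4% in Vwa8 and 21.5% in Mllt10. An effective number of junctions was taken as the inverse of the summed squared shares. It was 10.0 for Mllt10, 5.82 for Vwa8, 5.00 for Gphn and 2.58 for Tasp1, beside a median of 3.48 in the other 336 hosts with at least 10 junctions. Mllt10 thus spread its signal over many circles, while most of the Tasp1 signal sat in 1 circle with a long list of weak ones beside it. Relative to exons, Tasp1 had 2.14 junctions per exon of its longest transcript, Mllt10 1.58, Gphn 1.5 and Vwa8 0.80, beside a median of 0.608 in the other 336 hosts. The values of Dpyd (2.0), Rabep1 (1.53) and Rere (1.52) were alike, and as the hosts were chosen by junction number these ratios are no finding.

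Most of the junctions were rare. Of the 140, 13 were above 0 in all 12 libraries, 53 in at least 6 libraries and 87 in 1 to 5 libraries, and 44 of these 87 were above 0 in a single library. Junctions above 0 in at least 6 libraries numbered 18 in Mllt10, 13 in Gphn, 12 in Vwa8 and 10 in Tasp1. They carried between 90.9% (Vwa8) and 96.0% (Tasp1) of the host's signal. A value of 0 in this table means that no signal was listed. Of 14 member junctions with a mean of at least 5 SRPBM, 4 were listed at 0 in some library, so a 0 was not read as absence.

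**Figure D1:**
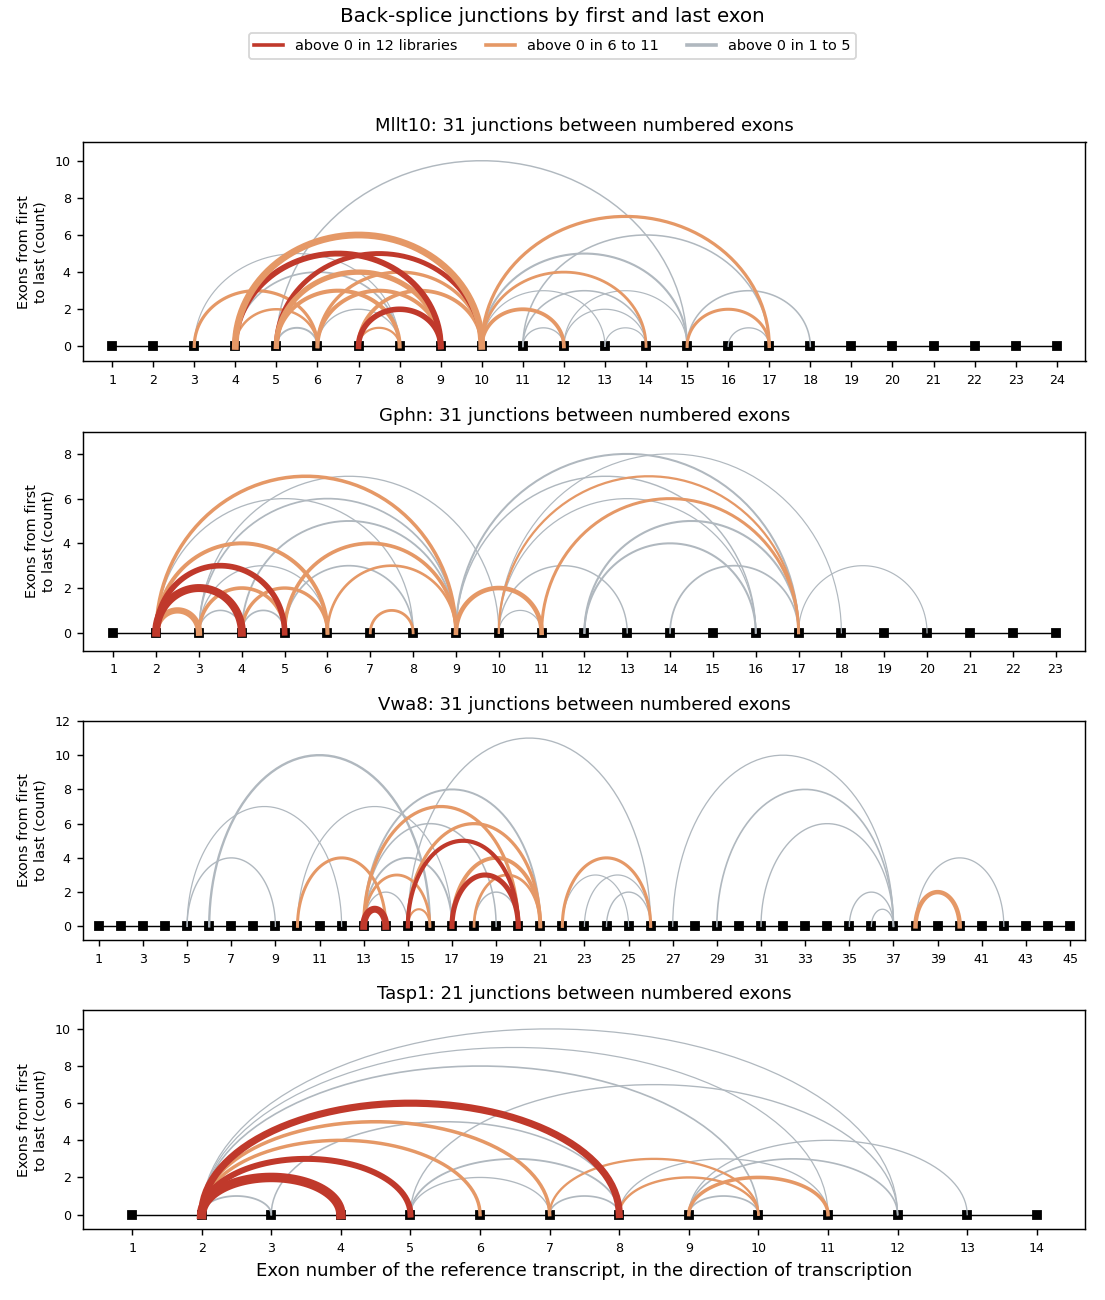
Back-splice junctions of Mllt10, Gphn, Vwa8 and Tasp1, each drawn as an arc from the first to the last exon of the circle, with exon number along the horizontal axis and the number of exons from first to last as the arc's height. Colour gives the number of libraries above 0, and a wider line stands for a higher mean SRPBM. Tasp1 arcs fan out from exon 2, Mllt10 arcs crowd between exons 4 and 10, and the outer Vwa8 arcs are grey.

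Tasp1 circles shared their start. Exon 2 served as the acceptor of 12 of the 30 junctions, and these carried 92.6% of the host's signal. Among the other 336 hosts with at least 10 junctions, the strongest acceptor carried a median of 56.4%. Exon 2 holds the start codon, so the 9 circles that ran from it to a numbered exon include part of the 5′ UTR. The donors that took most signal were exon 4, with 1 junction, and exon 8, with 4 junctions summing to 24.2 SRPBM. Exon 3 was inside circles that carried 89.2% of the signal, the highest share of any Tasp1 exon. Away from exon 2, exon 9 was the next acceptor, with 5 junctions and 3.71% of the signal.

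Mllt10 had several starts and ends of similar strength. Exon 4 took 36.2% of the signal as acceptor over 5 junctions, and exon 5 took 22.9% over 7. On the donor side exon 10 took 39.0% over 7 junctions and exon 9 took 37.5% over 4. Circles that contained exon 7 carried 79.1% of the signal. Exon 10 was used on both sides: it ended 7 circles and it started 5, which reached exons 12 to 17 and summed to 7.44 SRPBM. A junction above 0 in all 12 libraries ended at exon 10 and started at chr2:18139268, an exon start of another Mllt10 transcript, with a mean of 2.33 SRPBM. All 31 circles between numbered exons of Mllt10 lay inside the coding range taken over all annotated transcripts of the gene, as did all 31 of Gphn and all 31 of Vwa8. In the Mllt10 reference transcript itself exon 4 holds the start codon. The capitals of exon 4 shown above do not begin with that codon (ATG). Circles from exon 4, with 36.2% of the signal, therefore start in the 5′ UTR of this transcript, and so do circles from exon 3.

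Gphn circles also gathered at exon 2, the exon after the gene's longest intron of 116510 bp. Exon 2 was the acceptor of 8 junctions with 73.3% of the signal. The donors with the most signal were exon 4, with 2 junctions, and exon 3, with 1. The 3 strongest circles ran from exon 2 to exons 4, 3 and 5. Other circles ended further downstream. Exon 9 was the donor of 6 junctions summing to 7.89 SRPBM, and it was also an acceptor. Of these, the circle of exons 2 to 9, with a mean of 2.56 SRPBM, also belongs to the exon 2 acceptor. Exon 17 was the donor of 5 junctions summing to 4.36 SRPBM.

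Vwa8, the gene with the most exons, had its junctions in several stretches. Exon 13 was the acceptor of 7 junctions with 45.4% of the signal. The donors with the most signal were exon 14, with 3 junctions and 39.8%, and exon 20, with 6 junctions and 24.5%. Circles between numbered exons that contained exon 13 also contained exon 14, and they carried 50.3% of the signal. No Vwa8 exon lay inside circles with a higher share. Exon 37 was the donor of 5 junctions, but these summed to 0.883 SRPBM and none was above 0 in more than 3 libraries. Exons 38 to 40 made a separate circle with a mean of 4.95 SRPBM.

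**Figure D2:**
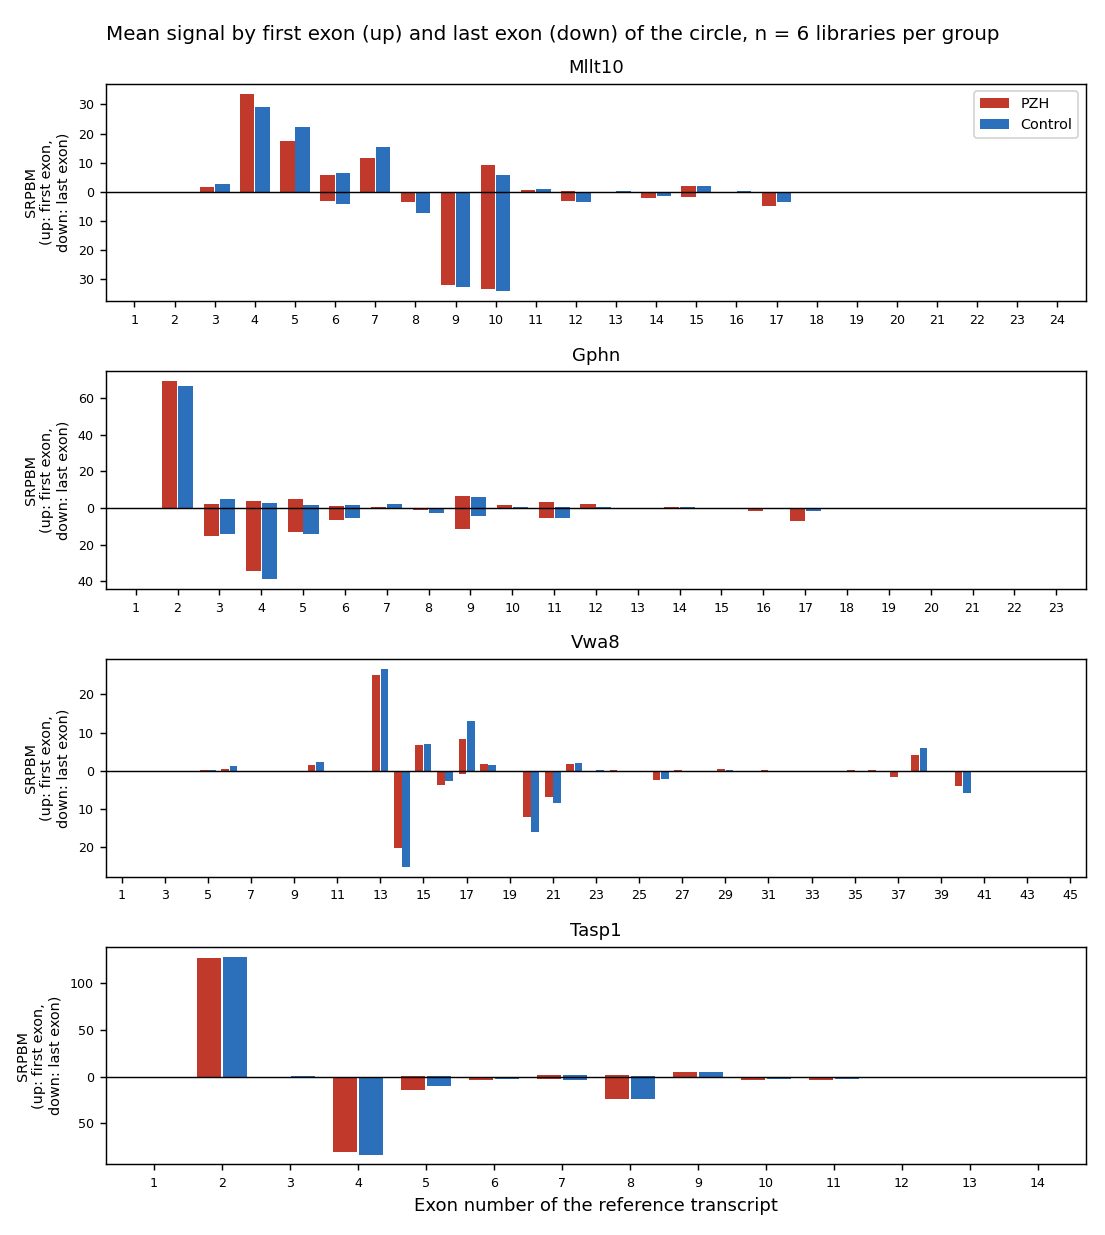
Mean SRPBM of Mllt10, Gphn, Vwa8 and Tasp1 circles by the exon at which they start (bars upward) and end (bars downward), for PZH (red) and Control (blue), 6 libraries each. The horizontal axis is the exon number of the reference transcript, and bars in both directions start at 0. The exons that start or end most signal are the same in both groups, with Tasp1 and Gphn at exon 2 and Vwa8 at exon 13.

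Circles spanned similar numbers of exons in the 4 hosts but unequal stretches of the genome. A circle between numbered exons spanned a median of 4 exons in Mllt10, Gphn and Tasp1 and 5 in Vwa8. The longest spanned 11, 9, 12 and 11 exons in Mllt10, Gphn, Vwa8 and Tasp1. The median genomic span was 18443.5 bp in Vwa8, 20495.5 bp in Mllt10, 39549.5 bp in Tasp1 and 57288.5 bp in Gphn. None of the 4 hosts had a circle of a single exon. That was common among hosts of this kind, as 245 of the other 336 hosts with at least 10 junctions (72.9%) had none either.

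Exons used as circle ends mostly lay beside long introns. The median intron upstream of a used acceptor was 10186 bp in Mllt10 and 9629 bp in Vwa8, which was 3.91 and 3.55 times the gene's own median intron. In Gphn it was 27041 bp, or 2.58 times. In Tasp1 it was 9925.5 bp, and the ratio was 0.791, with a median Tasp1 intron of 12541 bp. The ratio was above 1 in 88.7% of the other 336 hosts, with a median of 1.67. Downstream of used donors the ratio was 3.37 in Mllt10, 1.64 in Gphn, 4.44 in Vwa8 and 1.96 in Tasp1, beside a median of 1.6. These ratios describe the hosts and were not tested.

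In 25 of the 140 junctions 1 end was off every annotated exon boundary of the host: 6 in Mllt10, 5 in Gphn, 5 in Vwa8 and 9 in Tasp1. They carried little signal, 1.19% in Vwa8, 1.38% in Gphn, 1.87% in Mllt10 and 5.89% in Tasp1. The strongest ran from Tasp1 exon 2 to chr2:140030601, inside the intron after exon 4, with a mean of 4.60 SRPBM and signal in all 12 libraries. Another pair of Tasp1 junctions used chr2:140030863 in the same intron as acceptor, each above 0 in only 1 library. The donor and acceptor positions bound a stretch of 263 bp that is in no annotated exon of the gene, but the acceptor side rests on little signal. In Mllt10 the positions chr2:18135612 (acceptor, above 0 in 8 libraries) and chr2:18135670 (donor, above 0 in only 1 library) bound a 59 bp stretch of the intron after exon 9. Tasp1 exon 10 also had a donor at chr2:139947170, 13 bp inside the exon's annotated end at chr2:139947157. The inner donor served 4 junctions summing to 3.17 SRPBM and the annotated end 5 junctions summing to 2.77 SRPBM, and each was above 0 in 10 libraries. These positions were picked after their values were seen.

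The table held 3735 to 5510 junctions above 0 per library, on average 5060 ± 390 (SD, n = 6) in PZH and 4859 ± 660 in Control, with the lowest number in Control 2. Their SRPBM summed to 31472 to 41080 in PZH and 28922 to 40927 in Control. Circles of 10 of 11 hepatocyte marker genes were present. Circles of 3 of 11 hepatic stellate cell markers were listed, summing to 8.93 to 21.0 SRPBM in PZH and 1.78 to 9.60 in Control. The defining stellate genes Col1a1, Col1a2, Col3a1, Pdgfrb and Lrat had none. Circles of 6 of 8 endothelial markers summed to 24.3 to 37.7 SRPBM in PZH and 31.2 to 53.3 in Control. Those of 4 of 8 macrophage markers summed to 40.6 to 65.7 in PZH and 34.1 to 58.7 in Control, and those of 2 of 8 cholangiocyte markers to 68.3 to 99.5 and 57.79 to 101.01. No circles were listed for the macrophage markers Clec4f, Cd68, Vsig4 and Timd4 or the endothelial markers Kdr and Lyve1. The cholangiocyte markers Krt7, Krt19, Epcam, Sox9, Spp1 and Cftr had none either. Hepatocyte marker circles summed to 274.7 to 357.1 in PZH and 224.2 to 406.2 in Control. Their part in the results below was not tested.

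Summed over all its junctions, none of the 4 hosts passed the test between PZH and Control. Tasp1 summed to 90.9, 144 and 192 SRPBM (lowest, median and highest of 6) in PZH and to 119, 133 and 175 in Control. Mllt10 summed to 64.2, 86.4 and 102 in PZH and to 55.4, 83.6 and 139 in Control. Gphn summed to 79.1, 98.5 and 128 in PZH and to 63.9, 82.9 and 126 in Control. Vwa8 summed to 46.0, 54.0 and 59.5 in PZH and to 44.6, 64.1 and 68.4 in Control. The groups overlapped for every host, and for Vwa8 the Control 2 library lay below all PZH libraries while the other 5 Control libraries lay above them. The log2 difference, PZH minus Control on the log2(SRPBM + 0.636) scale, was -0.03 ± 0.15 (SE) for Tasp1, -0.01 ± 0.20 for Mllt10, 0.19 ± 0.16 for Gphn and -0.20 ± 0.14 for Vwa8. The limma adjusted p was 0.961, 0.986, 0.762 and 0.717 in that order, with 6 libraries per group. The 95% interval of the difference ran from -0.34 to 0.28 for Tasp1, from -0.42 to 0.40 for Mllt10, from -0.14 to 0.52 for Gphn and from -0.50 to 0.09 for Vwa8. In all 2204 host sums tested, 0 passed an adjusted p of 0.05 (0%), and 111 higher (5.04%) and 68 lower (3.09%) had an unadjusted p under 0.05.

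**Figure D3:**
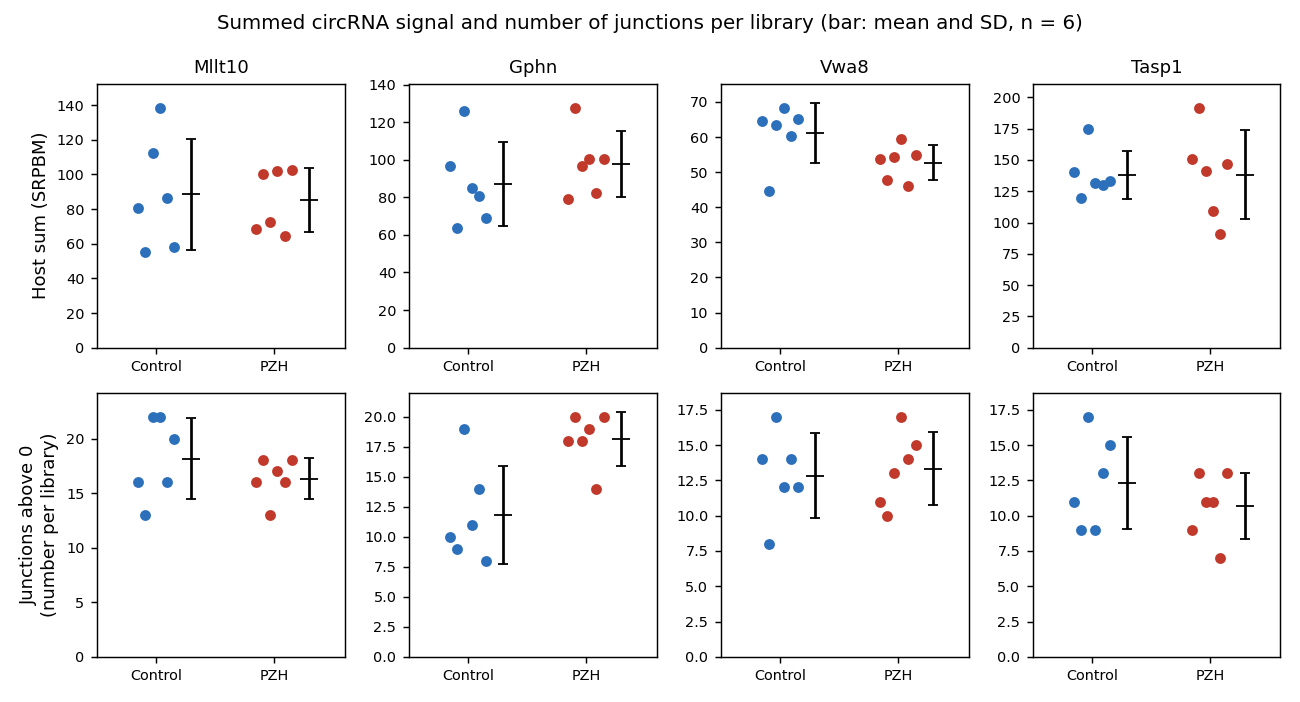
Summed SRPBM (top) and number of junctions above 0 (bottom) in each library for Mllt10, Gphn, Vwa8 and Tasp1, with 6 Control (blue) and 6 PZH (red) libraries as points and the mean and SD beside them. The summed signal overlaps between the groups in each panel, and 5 of 6 PZH libraries hold 18 to 20 Gphn junctions against 8 to 14 in 5 of 6 Control libraries.

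Single junctions were then compared. Of the 140 member junctions, 53 were above 0 in at least 6 libraries and could be tested, and 0 passed an adjusted p of 0.05 in limma. Over all 3870 junctions tested, 2 passed as higher (0.0517%) and 0 as lower (0%). At an unadjusted p under 0.05, 5 member junctions were higher and 2 lower, beside 176 higher (4.55%) and 116 lower (3%) of all those tested. Some of these members met the filter of 6 libraries mainly through the group in which they were higher. Of the 53, 26 had a positive and 27 a negative log2 difference with a median of -0.01, where over all tested junctions 54.3% were positive and the median was 0.06. By host the median was -0.18 for Mllt10, 0.30 for Gphn, -0.28 for Vwa8 and 0.03 for Tasp1.

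**Figure D4:**
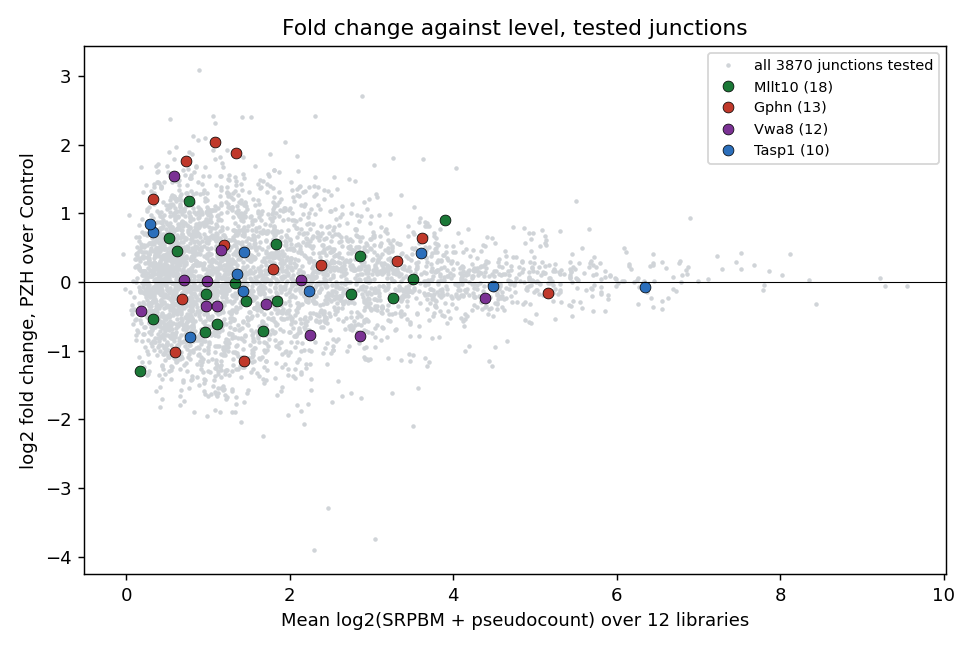
Log2 difference between PZH and Control (vertical axis) against the mean log2(SRPBM + pseudocount) over 12 libraries (horizontal axis) for all 3870 junctions tested (grey), with the tested junctions of Mllt10 (18), Gphn (13), Vwa8 (12) and Tasp1 (10) in colour. Members lie on both sides of 0, and the highest is the Gphn circle of exons 2 to 9 at 2.04.

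The strongest circle of all was the Tasp1 circle of exons 2 to 4, with 350 exonic bases. It stood at 55.4, 82.3 and 105 SRPBM in PZH and at 70.1, 84.8 and 95.9 in Control. Its PZH libraries covered the whole Control range. Means were 80.2 ± 17.8 (SD, n = 6) and 83.3 ± 8.94, the log2 difference was -0.08 ± 0.14 and the limma adjusted p was 0.939. The Tasp1 circle of exons 2 to 8 had a mean of 23.3 ± 11 SRPBM in PZH and 22.9 ± 5.81 in Control. The Tasp1 circle of exons 2 to 5 measured 8.34, 13.8 and 20.5 SRPBM in PZH and 7.67, 9.68 and 13.3 in Control. It had the smallest p of the Tasp1 circles that were higher with PZH, with a log2 difference of 0.42 ± 0.28 and a limma adjusted p of 0.732. Values of these 3 Tasp1 circles overlapped between the groups. Among the lower Tasp1 junctions, the smallest p belonged to exon 9 joined to the inner donor of exon 10. It had signal in 3 PZH and 5 Control libraries and a limma adjusted p of 0.803.

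The strongest Mllt10 circle, exons 4 to 10, measured 9.42, 22.9 and 26.2 SRPBM in PZH and at 0, 19.1 and 26.1 in Control. Control 6 was listed at 0 while the other Control libraries stood at 9.06 or more. The log2 difference was 0.91 ± 0.63 with a limma adjusted p of 0.743, and 0.09 without Control 6 (adjusted p of 0.959). The Mllt10 circle of exons 4 to 9, with the same start, had means of 11.4 ± 3.71 SRPBM (SD, n = 6) in PZH and 10.9 ± 3.11 in Control. The Mllt10 circle of exons 7 to 9 had means of 8.86 ± 3.73 and 10.1 ± 3.33. Values of these circles overlapped between the groups throughout. The small Mllt10 circle of exons 7 to 8 was above 0 in 1 PZH library at 0.681 SRPBM and in 5 Control libraries up to 4.09. Its log2 difference was -1.29 ± 0.50, with an unadjusted limma p of 0.0173 and an adjusted p of 0.566. This circle met the filter of 6 libraries mainly through Control, where it was higher, so its p is not independent of the filter. The Mllt10 circle of exons 10 to 17 had signal in 4 PZH and 2 Control libraries (limma adjusted p of 0.73).

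The strongest Gphn circle, exons 2 to 4, stood at 22.7, 33.2 and 49.7 SRPBM in PZH and at 27.5, 37.4 and 52.6 in Control. Its means were 34.1 ± 8.86 (SD, n = 6) and 38.3 ± 10.5, with a log2 difference of -0.16 ± 0.20 and a limma adjusted p of 0.894. The Gphn circle of exons 2 to 3 measured 9.19, 16.0 and 17.3 SRPBM in PZH and at 0, 15.1 and 24.3 in Control, with Control 2 listed at 0. Its log2 difference was 0.65 with all libraries and -0.14 without Control 2. Means of the circle of Gphn exons 2 to 5 were 10.6 ± 2.54 SRPBM in PZH and 9.48 ± 4.44 in Control. None of these 3 Gphn circles differed beyond the spread between mice.

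Among Gphn circles, 4 had an unadjusted limma p under 0.05, and all 4 were higher with PZH. They are given here because of that p. A junction was tested if it was above 0 in at least 6 of 12 libraries. The circles of exons 2 to 9, 11 to 17 and 10 to 17 met this mainly through PZH libraries, where they were higher. The circle of exons 2 to 9 was above 0 in 6 of 6 PZH libraries, at 1.67, 3.49 and 8.36 SRPBM (lowest, median and highest), and in 2 of 6 Control libraries, at 1.33 and 3.45. Its log2 difference was 2.04 ± 0.67 with an unadjusted limma p of 0.00609, and its adjusted p of 0.454 missed the threshold. When zeros were treated as missing the difference was 0.61 with an adjusted p of 0.807. For Gphn exons 5 to 9, 6 PZH and 3 Control libraries had signal, and the log2 difference was 1.88 (limma adjusted p of 0.485). For Gphn exons 11 to 17 it was 1.76 (limma adjusted p of 0.551), from 5 PZH and 2 Control libraries with signal. For Gphn exons 10 to 17 it was 1.21 (limma adjusted p of 0.588), from 6 PZH libraries and 1 Control library with signal. These pairs share a donor, exon 9 or exon 17, and were not independent of each other. Neighbouring circles did not all lean this way: Gphn exons 7 to 8 had signal in 2 PZH and 5 Control libraries (log2 difference -1.02), and Gphn exons 6 to 9 in 5 PZH and 4 Control libraries (log2 difference -0.24). These neighbours were chosen after their values were seen. The smallest p among the lower circles was that of Gphn exons 3 to 5, which stood at 0, 1.67 and 3.72 SRPBM in PZH and 0.723, 4.36 and 6.07 in Control (limma adjusted p of 0.692).

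Summed by donor, Gphn exon 9 stood at 6.98, 11.8 and 17.6 SRPBM in PZH and at 0, 3.50 and 11.5 in Control. Gphn exon 17 stood at 3.72, 6.98 and 10.0 SRPBM in PZH and at 0, 1.78 and 4.69 in Control. Both were chosen after their values were seen and were not tested. Both ranges overlapped between the groups. The Gphn exon 2 acceptor stood at 52.3, 70.0 and 83.7 SRPBM in PZH and at 48.0, 63.3 and 89.4 in Control.

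The strongest Vwa8 circle, exons 13 to 14, stood at 15.6, 19.5 and 21.2 SRPBM in PZH and at 15.6, 23.1 and 27.4 in Control. Its means were 18.9 ± 2.12 (SD, n = 6) and 22.6 ± 4.68, with a log2 difference of -0.23 ± 0.20 and a limma adjusted p of 0.802. The Vwa8 circle of exons 17 to 20 measured 2.31, 4.61 and 9.01 SRPBM in PZH and at 6.07, 10.3 and 10.9 in Control. Its means were 5.27 ± 2.33 and 9.17 ± 2.22, and 4 of 6 PZH libraries lay below every Control library. The log2 difference was -0.79 ± 0.35 with an unadjusted limma p of 0.0328, and the adjusted p of 0.61 missed the threshold. The Vwa8 circle of exons 38 to 40 measured 0, 3.75 and 7.71 SRPBM in PZH and at 3.44, 4.96 and 9.64 in Control. For Vwa8 exons 13 to 16, 5 PZH and 2 Control libraries had signal, giving a log2 difference of 1.54 ± 0.63 and a limma adjusted p of 0.578. With zeros treated as missing that difference was 1.02. The circle of exons 13 to 16 met the filter of 6 libraries mainly through PZH, where it was higher. Summed by acceptor, Vwa8 exon 13 had medians of 24.4 SRPBM in PZH and 26.7 in Control. For Vwa8 exon 17 they were 7.89 and 14.0. Both ranges overlapped between the groups and neither sum was tested, so no direction is read for either start.

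**Figure D5:**
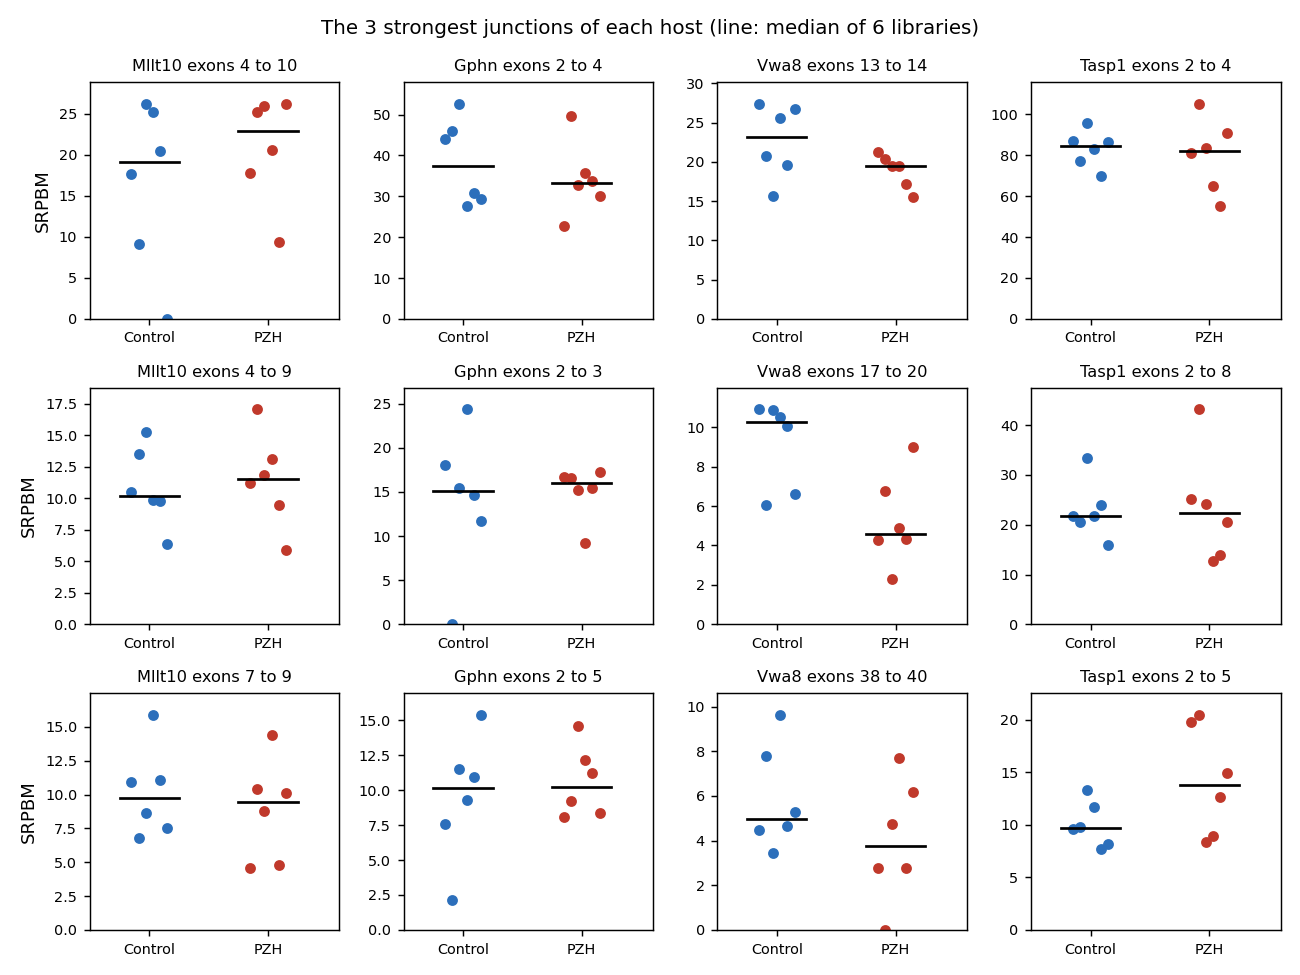
SRPBM of the 3 strongest circles of Mllt10, Gphn, Vwa8 and Tasp1 in each library, with 6 Control (blue) and 6 PZH (red) points and a line at the median; each panel has its own scale from 0. Control 6 is listed at 0 for Mllt10 exons 4 to 10 and Control 2 for Gphn exons 2 to 3, and 4 of 6 PZH points for Vwa8 exons 17 to 20 lie below every Control point.

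The number of a host's junctions above 0 in each library was compared next. It counts junctions listed with signal, not kinds of circles made. It draws on the same entries above 0 as the pooled number that picked the hosts. Of the 36 Gphn junctions, 10 were above 0 only in PZH and 2 only in Control. The test below is thus not independent of that choice. Gphn had 14, 18.5 and 20 junctions (lowest, median and highest) in PZH and 8, 10.5 and 19 in Control. PZH libraries were mostly the higher ones, but Control 3 had 19 and PZH 5 had 14. Over the whole table, the 5 Control libraries with 8 to 14 Gphn junctions held 3735 to 5444 junctions above 0 and Control 3 held 5500. The PZH libraries held 4439 to 5510, and PZH 1, with the 4439, had 18 Gphn junctions. Means were 18.2 ± 2.23 (SD, n = 6) and 11.8 ± 4.07, and the 2-sided exact permutation test over 924 assignments gave p = 0.0195. Adjusted over 340 hosts with at least 10 junctions it was 1. Of those hosts, 6 (1.76%) were higher and 4 (1.18%) lower with an exact p under 0.05, and 0 (0%) passed after adjustment. Counting only junctions of at least 2 SRPBM, the Gphn difference fell from 6.33 to 2.5 junctions (exact permutation p = 0.119). The smallest p this exact test can give is 0.00216. Over 340 hosts, none could pass adjustment unless many stood near that smallest value together. The adjusted values therefore decide little here.

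Over all libraries of a group, Gphn junctions were above 0 in 109 of 216 entries in PZH and 71 of 216 in Control. Of the 36 Gphn junctions, 24 were above 0 in more PZH than Control libraries, 6 in more Control libraries and 6 in as many. Over the whole table, a PZH library held 5060 junctions above 0 on average and a Control library 4859. The same tally over all junctions is not given here. Junctions of the same libraries are not independent of each other, so these counts are a description. The other hosts were closer to balance, with 98 and 109 of 228 entries in Mllt10, 80 and 77 of 216 in Vwa8 and 64 and 74 of 180 in Tasp1. Per library Mllt10 had 16.3 ± 1.86 junctions (SD, n = 6) in PZH and 18.2 ± 3.71 in Control (exact permutation p = 0.357). Vwa8 had 13.3 ± 2.58 and 12.8 ± 2.99 (exact permutation p = 0.835), and Tasp1 had 10.7 ± 2.34 and 12.3 ± 3.27 (exact permutation p = 0.437). All 3 had an adjusted p of 1. Whether Gphn differs from the other hosts in this was not tested.

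The share of a host's signal in its strongest junction was compared to see whether the choice among circles moved. For Gphn the circle of exons 2 to 4 took 34.7 ± 4.87% (SD, n = 6) in PZH and 45.3 ± 13.7% in Control (exact permutation p = 0.0563, adjusted 0.544). Control 2 was at 71.8%, and without a single library the difference ranged from -13.2 to -5.36 percentage points. For Tasp1 the share was 58.4 ± 3.39% and 60.6 ± 4.89% (exact permutation p = 0.394). For Vwa8 it was 36 ± 5.00% and 37.4 ± 7.83% (exact permutation p = 0.738). For Mllt10 it ran from 14.7% to 35.9% in PZH and from 0% in Control 6 to 23.7% in Control (exact permutation p = 0.143). The adjusted p of these 3 was 0.726 or higher over the 300 hosts tested. Of those hosts, 12 (4%) had a higher and 14 (4.67%) a lower share at an exact p under 0.05, and 0 (0%) passed after adjustment. With the same smallest possible p, no host could have passed alone here either.

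Genes that work with the hosts were looked at in the same table. Of 21 genes of the DOT1L complex, taspase 1 substrates and MLL partners, 14 had circRNAs and 25 junctions were tested. None passed, with 0 called in either direction, 1 higher and 0 lower at an unadjusted p under 0.05, and a median log2 difference of 0.18. The strongest were Kmt2c, a histone methyltransferase gene, with 38 ± 7.16 SRPBM (SD, n = 6) in PZH and 40.8 ± 4.68 in Control, and Ash1l, another one, with 43.3 ± 11.9 and 30.4 ± 12.2. The Ash1l log2 difference was 0.57 ± 0.25 with a limma adjusted p of 0.613. Of 11 genes of molybdenum cofactor synthesis and its enzymes, 7 had circRNAs and 6 junctions were tested, of which 0 were called. Xdh, xanthine dehydrogenase, had 26.4 ± 7.36 SRPBM in PZH and 25.5 ± 4.76 in Control. Of 17 genes of mitochondrial and other AAA proteins, 13 had circRNAs and 3 junctions were tested, of which 0 were called.

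The hosts did not follow each other closely across the 12 libraries. Pearson r between their log2 sums ranged from 0.122 for Gphn and Vwa8 to 0.676 for Mllt10 and Gphn, and with sums taken as shares of the library's total SRPBM from -0.402 to 0.241. Among 398 hosts compared, the sums most like Mllt10 were those of Gigyf2 and Tlk1 (r of 0.878 each). Those most like Gphn were Ep400 (0.941) and Cdh2 (0.916). For Vwa8 they were Slc4a4 (0.854) and Ddx17 (0.818), and for Tasp1 Nbas (0.906) and Pdia5 (0.841). These are the highest of many values over 12 libraries that share each library's depth, and they carry no test.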

How the data were processed

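circRNA signal was measured in 12 liver libraries, 6 per group, grouped by the titles and treatment labels. The authors deposited 1 table of 16445 circRNAs with a signal in SRPBM per library. Trizol extraction and TruSeq RNA library preparation are named per the labels' protocols. Trim Galore (trimming), STAR (alignment) and mm10 (GRCm38) are named per the submitters' processing notes. How circRNAs were called and filtered, and the exact SRPBM formula, is not given in the sources used here.

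The smallest values above 0 were 0.584 to 0.719 SRPBM per library. Among values up to 8.5 times the inferred value of 1 read pair, 56.8% to 63.8% lay between 0.05 below and 0.1 above a whole number, so whole reads were not recovered, read depth is unknown and no count model was used. Exon boundaries came from GENCODE M21, with 16036 starts and 16066 ends of 16445 matching exactly. limma 3.58.1 (R 4.3.3) with a variance trend was fitted on log2(SRPBM + 0.636), the median of the libraries' smallest values, over circRNAs above 0 in at least 6 of 12 libraries. Host sums were fitted alike. Tests were 2-sided with Benjamini-Hochberg adjustment over all features and a threshold of 0.05. The pseudocount understates the ratio between low values above 0, and where some libraries are listed at 0 the fold change can be larger than among the values above 0. Exact permutation tests ran in numpy 2.4.6 (Python 3.11.15). p-values measure the spread between these 6 and 6 mice. The scripts were tested on simulated data.

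Named junctions were, per host, the 3 with the highest mean and the 1 with the smallest p in each direction. Other junctions of unadjusted p under 0.05, the Gphn donors of exons 9 and 17 and the off-boundary positions were added after their values were seen. The members and lists were chosen with earlier results of these data known. Replicate numbers did not pair libraries: same-number correlations of deviations over 1089 circRNAs ran from -0.122 to 0.0299. Alternatives were other pseudocounts, filters and scalings, no trend, a replicate block, boundary-only junctions, a 2 SRPBM minimum, the 3 strongest junctions together and each library left out in turn. A fit with zeros as missing values was added after seeing the data.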

Additional observations from a re-analysis of the deposited data

Results flagged for a closer look

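In 60 groups of 6 libraries looked at, 6 had a highest or lowest library far from the rest of its group, where chance gives about 5% of groups. The summed Vwa8 signal of Control 2 was 44.6 SRPBM, where the other Control libraries stood at 60.3 to 68.4. PZH 5 had 14 Gphn junctions above 0, where the other PZH libraries had 18 to 20. The strongest Mllt10 junction took 0% of the host's signal in Control 6, as the circle of exons 4 to 10 was listed at 0 there, and 16.4% to 23.7% in the other Control libraries. The strongest Gphn junction took 71.8% in Control 2 and 32.4% to 45.5% in the other Control libraries. The Mllt10 circle of exons 7 to 8 was at 0.681 SRPBM in PZH 1 and listed at 0 in the other PZH libraries. The Gphn circle of exons 2 to 3 was at 9.19 SRPBM in PZH 4 and at 15.2 to 17.3 in the other PZH libraries.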

How the results depend on the processing

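No member junction was called in limma under any alternative run, and the smallest adjusted p among member junctions ranged from 0.218 to 0.658 over them. Of 225 recomputed host values and counts 210 kept their direction and side of the threshold, and of 356 recomputed named junctions 347 did. Every reversal was of a value that had not passed a test, and the cause was not tested. The log2 difference of the Mllt10 sum was 0.023 with junctions on boundaries at both ends. The Tasp1 difference in junctions above 0 was 0.333 with a minimum of 2 SRPBM, and its difference in share was 0.674 percentage points for the 3 strongest junctions together. The Gphn circle of exons 2 to 3 was at -0.14 with zeros treated as missing. Leaving out 1 library at a time, the Mllt10 sum ranged from -0.13 to 0.13, the Tasp1 sum from -0.13 to 0.084, the Vwa8 number of junctions from -0.467 to 1.33 and the Vwa8 share from -3.88 to 0.485 percentage points. On the log2 scale Mllt10 exons 4 to 9 ranged from -0.083 to 0.21, Gphn exons 2 to 3 from -0.14 to 0.92, Gphn exons 2 to 5 from -0.034 to 0.47, Tasp1 exons 2 to 4 from -0.16 to 0.022 and Tasp1 exons 2 to 8 from -0.26 to 0.086. Without a change of direction, the Gphn sum (0.19) ranged from 0.11 to 0.30, Gphn exons 2 to 4 (-0.16) from -0.27 to -0.05, Mllt10 exons 7 to 9 (-0.23) from -0.38 to -0.08 and Vwa8 exons 38 to 40 (-0.77) from -1.02 to -0.27. The share of the strongest junction ranged from 3.88 to 9.30 percentage points in Mllt10 and from -3.48 to -1.21 in Tasp1, and the number of junctions from -2.87 to -1.07 in Mllt10 and from -2.33 to -0.733 in Tasp1. The Gphn difference in junctions above 0 ranged from 5.57 to 7.77 with an exact permutation p of 0.00649 to 0.0325 (adjusted p of 0.788 or higher). These refits draw on the same entries that picked the hosts, so they are not independent of that choice either.

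With a replicate block, 0 member junctions were called, the Gphn difference in junctions had a paired exact p of 0.125, and Vwa8 exons 17 to 20 had an unadjusted limma p of 0.0639. No library correlated best with its own number, so the numbers gave no pairing. Over the whole table, limma called 2 higher and 0 lower, 1 and 0 with the block, 3 and 3 among circRNAs above 0 in at least 3 libraries, 8 and 2 among those above 0 in all 12, and 7 and 5 with zeros treated as missing. Leaving out a library gave 1 higher and 0 to 2 lower. Junctions of 1 to 3 SRPBM lay close to the smallest value listed, so their presence in a library was not a precise measure at this depth.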
